A study of Mus musculus with 4 samples.

Results

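*Hmgcs1*, *Sqle*, *Idi1*, *Insig1*, *Fdps*, *Fdft1*, *Cyp51* and *Dhcr7* are genes of cholesterol synthesis and its control, and all are known targets of the transcription factor SREBP2. They were chosen by symbol, as a readout of serum lipids and of tamoxifen, and are 8 of the 24391 gene symbols counted by RNA-seq in WT and *Phf2* KO mouse embryonic fibroblasts (MEFs). All 8 have a row in the count table, 7 had counts, and the same 7 passed the filter on low counts and were tested. The MEFs came from E13.5 embryos, and by the labels all 4 libraries carry Phf2 flox/flox and ERCre/+, a Cre recombinase that is active only when 4-hydroxytamoxifen (4-OHT) binds it and that is expressed from the *Rosa26* locus in every cell. The 2 *Phf2* KO libraries are labelled with tamoxifen and the 2 WT libraries with no treatment, so "WT" here means floxed cells without a tamoxifen label. The methods describe deletion in quiescent, confluent cells with 0.5 µM 4-OHT for 7 days in Opti-MEM with charcoal-treated serum. This text is the same for all 4 libraries, and which medium or vehicle the WT cells had is not stated. Exposure to 4-OHT, Cre activity and loss of *Phf2* came together in the KO libraries and cannot be told apart here.

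Cells make cholesterol from acetyl-CoA through mevalonate, isoprenoid units, squalene and lanosterol. When sterols are plentiful, the Insig proteins hold SREBP2 and its escort Scap in the endoplasmic reticulum. When sterols run low, Scap carries SREBP2 to the Golgi, proteases release its transcription factor part, and the genes of the synthesis enzymes and of lipoprotein uptake are switched on together. *Insig1* is itself a target, which closes a feedback loop. Serum supplies cholesterol in lipoproteins, and tamoxifen is known to inhibit enzymes late in the pathway, among them the sterol isomerase encoded by *Ebp*.

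The total count was between 21094743 and 26094268 per library, and 3 counts, taken as the limit of detection, were worth between 0.115 and 0.142 CPM (counts scaled for library size), which covers counting error only. The deleted gene, *Phf2*, had 3244 and 3680 counts in the WT libraries against 1454 and 2158 in the KO libraries. Its log2 fold change was -0.79 (standard error 0.14), and both KO libraries lay below both WT libraries. Its adjusted p in the edgeR fit used below was 0.999, so that fit did not call the deleted gene itself. The alternative fit with DESeq2 did, with an adjusted p of 0.00321. So did an edgeR fit with a term for replicate number (adjusted p = 7.67e-19), a pairing that labels and methods do not state. Here and below, values of a group are given in the order of replicates 1 and 2. Counts of the inactive X transcript *Xist* (WT 10042 and 3, KO 8336 and 12) and of the Y-linked *Ddx3y* (WT 6 and 1271, KO 10 and 1295) showed that replicate 1 was female and replicate 2 male in both groups. The summed CPM of 20 macrophage markers came to 4505 and 978 for WT, and to 5078 and 1521 for the KO, so replicate 1 was the higher in both groups. Within each replicate number, the KO sum was the higher. Fibroblast markers such as *Col1a1* were abundant in all 4 libraries, with a summed CPM of 83249 and 86510 for WT, and of 75117 and 72701 for the KO. Fewer cells of a type and less RNA per cell cannot be told apart in such bulk samples. Replicates 1 and 2 thus came from different embryos, and whether libraries of the same number came from the same cells is not stated. The p-values below measure the spread between these 2 libraries of each group. With 2 libraries against 2, an exact two-sided permutation test of a single gene cannot go below 0.333, so the tests below are those of a model fitted across 13668 genes.

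None of the 7 members tested was called different between *Phf2* KO and WT MEFs in fits with genotype alone. With a replicate block added, a pairing that labels and methods do not state, 2 were called lower and 0 higher. Of all 13668 genes tested, that fit called 711 lower and 789 higher. *Sqle* and *Cyp51*, which encode the enzymes that oxidize squalene and demethylate lanosterol, had the largest differences: their mean normalized CPM in *Phf2* KO was 79.4% and 77.9% of that in WT. *Insig1* and *Dhcr7* stood at 100.1% and 97.3%, *Fdps*, *Fdft1* and *Idi1* between 89.6% and 91.7%, and *Hmgcs1* was listed at 0 in every library. By the quasi-likelihood test of edgeR, at a Benjamini-Hochberg adjusted p under 0.1 over all genes, 0 of 7 members were called, against 1 of 13668 genes (0.00732%). DESeq2 also called 0 of 7, against 64 of 16040 genes (0.399%), and limma-voom called 0. At an unadjusted p under 0.05, 2 of 7 members were lower in *Phf2* KO, against 2.67% of all genes tested, and 0 were higher, against 1.54%.

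*Hmgcs1* encodes the cytosolic HMG-CoA synthase, an early enzyme of the mevalonate part of the pathway. Each of the 4 libraries, 2 WT and 2 *Phf2* KO, lists it with 0 counts. No fold change can be given for it. Its genome sequence is shown because it bears on this 0. The RefSeq promoter of *Hmgcs1* (GRCm38.p6, chr13:119690101-119690350, forward strand, the 250 bases before the start) is the first of the 3 promoters printed here. In the build to which the reads were aligned, NCBIM37 (mm9), no window of this sequence matched an assembled chromosome. All 251 windows of 50 bases along the RefSeq window of 300 bases were found on 2 unplaced contigs. Of 17861 windows of 50 bases in the 17910 bases that follow the promoter on the contig, 100% had more than 1 copy in the genome, and the other contig held 100% of them. The symbol is missing from the GENCODE vM1 annotation of that build. How the authors' counting treated reads with several matches is not given in the sources used here, and the part of these copies in the value of 0 was not tested.

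RefSeq promoters were found for 5 of the 8 members (*Hmgcs1*, *Idi1*, *Insig1*, *Cyp51* and *Dhcr7*), in 7 windows. Those of *Hmgcs1*, *Cyp51* (chr5:4104698-4104947, reverse strand) and *Insig1* (chr5:28071162-28071411, forward strand) are given 5′ to 3′ in GRCm38.p6, since they stand for the member without counts, for a member with a lower mean in *Phf2* KO and for the member whose means were nearly equal. Capitals mark matches, on either strand, to the sterol regulatory element TCACNCCAC, a looser form TCACNNCA, the NF-Y box CCAAT, the GC box GGGCGG and the E-box CACGTG.
*Hmgcs1*: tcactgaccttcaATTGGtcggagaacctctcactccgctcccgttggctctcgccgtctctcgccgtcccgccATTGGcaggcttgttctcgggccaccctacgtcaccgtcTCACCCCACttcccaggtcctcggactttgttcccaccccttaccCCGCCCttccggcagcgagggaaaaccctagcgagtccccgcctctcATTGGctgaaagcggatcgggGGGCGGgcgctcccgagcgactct
*Cyp51*: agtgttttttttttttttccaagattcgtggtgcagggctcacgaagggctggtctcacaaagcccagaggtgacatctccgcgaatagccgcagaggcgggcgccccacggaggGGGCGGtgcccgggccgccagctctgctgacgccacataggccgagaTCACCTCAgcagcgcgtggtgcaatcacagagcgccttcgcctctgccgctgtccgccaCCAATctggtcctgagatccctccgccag
*Insig1*: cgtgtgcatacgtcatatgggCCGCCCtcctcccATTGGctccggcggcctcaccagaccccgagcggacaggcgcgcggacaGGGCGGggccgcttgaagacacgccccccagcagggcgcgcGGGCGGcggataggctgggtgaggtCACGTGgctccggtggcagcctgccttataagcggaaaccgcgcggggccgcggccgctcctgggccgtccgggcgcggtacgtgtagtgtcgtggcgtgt

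SREBP2 is known to bind the sterol regulatory element together with NF-Y or Sp1, which bind the CCAAT and GC boxes. Among the 5 members with a promoter sequence, TCACNCCAC occurred in *Hmgcs1* alone, between 137 and 129 bases before the start. It was present in 1.05% of 32851 promoter windows of the same length. The looser TCACNNCA, which any match to TCACNCCAC also matches and which was chosen after the sequences had been read, occurred in *Hmgcs1*, *Cyp51* (between 88 and 81 bases before the start) and *Dhcr7*, and in 11.4% of all windows. CCAAT and GGGCGG were each found in all 5 members, and in 33.8% and 32.7% of all windows. CACGTG was found in *Insig1* and *Dhcr7*, and in 6.02% of all windows. *Dhcr7* has 3 windows and so more sequence in which a match can fall. A match is a run of letters and was not tested for binding, and the 250 bases leave out more distant elements.

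*Idi1*, *Fdps* and *Fdft1* encode the enzymes that isomerize isopentenyl diphosphate, build farnesyl diphosphate and join it to squalene. *Idi1* (chromosome 13 of NCBIM37, 8884852 to 8891641, forward strand, 5 merged exons) had 29 and 23 counts in the WT libraries against 25 and 16 in the KO libraries, or 1.203 and 0.886 against 1.21 and 0.665 normalized CPM. Its values overlapped between the groups, and its log2 fold change was -0.17 (standard error 0.43, 95% interval -1.31 to 0.98). *Fdps* (chromosome 3, 88897514 to 88905881, reverse strand, 10 exons) had 1165 and 1232 counts in the WT libraries against 1008 and 942 in the KO libraries, or 48.3 and 47.5 against 48.6 and 39.2 normalized CPM. *Phf2* KO replicate 2 lay below the other 3 libraries, and the log2 fold change was -0.13 (standard error 0.13, 95% interval -0.48 to 0.23). *Fdft1* (chromosome 14, 63763990 to 63796630, reverse strand, 8 exons) had 1886 and 1802 counts in the WT libraries against 1519 and 1454 in the KO libraries, or 78.2 and 69.4 against 73.3 and 60.5 normalized CPM. The groups overlapped here too, and the log2 fold change was -0.14 (standard error 0.13, 95% interval -0.49 to 0.20).

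*Sqle* encodes squalene epoxidase, a rate-limiting enzyme of the sterol branch, lies on chromosome 15 (59146632 to 59162747, forward strand) and has 11 exons. It had 2820 and 2966 counts in the WT libraries against 2052 and 2032 in the KO libraries, or 117 and 114 against 99.0 and 84.5 normalized CPM (115.6 ± 1.90 and 91.7 ± 10.3, SD, n = 2 each). Both *Phf2* KO libraries lay below both WT libraries. The log2 fold change was -0.33 (standard error 0.11, 95% interval -0.61 to -0.06), and edgeR gave an unadjusted p of 0.028 and an adjusted p of 0.999.

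*Cyp51* encodes lanosterol 14α-demethylase, lies on chromosome 5 (4081145 to 4104746, reverse strand) and has 10 exons. It had 2546 and 2327 counts in the WT libraries against 1689 and 1696 in the KO libraries, or 105.6 and 89.6 against 81.5 and 70.5 normalized CPM (97.6 ± 11.3 and 76.0 ± 7.76, SD, n = 2 each). The groups did not overlap in this gene either. The log2 fold change was -0.36 (standard error 0.13, 95% interval -0.70 to -0.03), and edgeR gave an unadjusted p of 0.0393 and an adjusted p of 0.999. The unadjusted p depended on single libraries: with WT replicate 1 or *Phf2* KO replicate 2 left out, 0 members were under 0.05, and with WT replicate 2 left out, 1 was.

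*Dhcr7* encodes the reductase of the last step to cholesterol in one branch of the pathway, lies on chromosome 7 (151009050 to 151034315, forward strand) and has 12 exons. It had 1242 and 1091 counts in the WT libraries against 1094 and 920 in the KO libraries, or 51.5 and 42.0 against 52.8 and 38.3 normalized CPM. The *Phf2* KO values lay on either side of the WT values, and the log2 fold change was -0.04 (standard error 0.20, 95% interval -0.57 to 0.49). *Insig1*, the sterol-dependent brake on SREBP2, lies on chromosome 5 (28397952 to 28405201, forward strand) and has 5 exons. It had 2622 and 2262 counts in the WT libraries against 2235 and 2124 in the KO libraries, or 108.7 and 87.1 against 107.8 and 88.3 normalized CPM. The replicates differed more than the groups, and the log2 fold change was 0.00 (standard error 0.16, 95% interval -0.42 to 0.42).

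**Figure D1:**
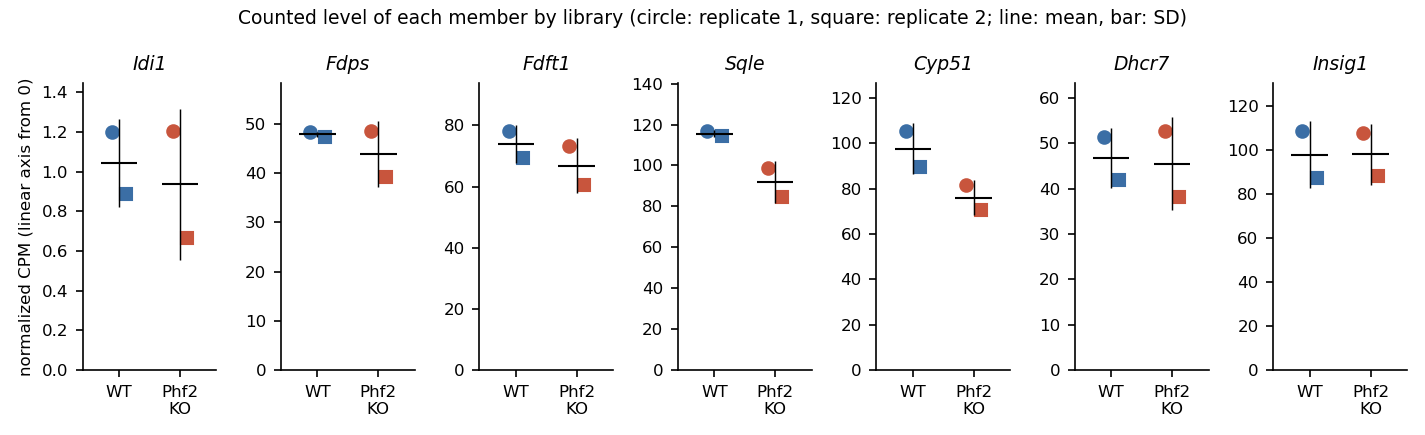
Normalized CPM (vertical axes, linear, from 0, scaled for each gene) of the 7 members with counts, with circles for replicate 1, squares for replicate 2, horizontal lines for group means and vertical bars for the SD (n = 2). Both *Phf2* KO points of *Sqle* and *Cyp51* lie below both WT points, and in the other 5 genes the groups overlap.

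As a list, 6 of the 7 members had a log2 fold change below 0 and 1 above. The one above, *Insig1*, was at -0.01 with libraries scaled by size alone. The median was -0.14, and the median of all genes tested was 0.01. Both *Phf2* KO libraries lay below both WT libraries in 2 of 7 members, against 18.0% of all genes tested, and above them in 0, against 15.5%. The choice of members was made with results of these data known, and the genes share one regulator, so these counts are a description and carry no test. Among 12 fibroblast markers, 9 had a log2 fold change below 0 and 6 had both *Phf2* KO libraries below both WT libraries, and the part of this in the members' values was not tested. The median depended on each library: it was 0.02 without *Phf2* KO replicate 2, -0.04 without WT replicate 1, -0.24 without WT replicate 2 and -0.29 without *Phf2* KO replicate 1.

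Within both groups, replicate 1 exceeded replicate 2 in normalized CPM for all 7 members. The log2 difference between the replicates ranged from 0.03 to 0.44 among WT and from 0.21 to 0.86 among KO libraries, where *Idi1* with its few counts was the highest. The medians, 0.24 and 0.29, were larger in size than the median difference between the groups. This difference ran along with the sex of the libraries and with the macrophage markers, 19 of 19 of which were higher in replicate 1 in both groups, and the part of either in the members' values was not tested. The ratio of *Phf2* KO to WT was therefore also taken within each replicate number. For *Cyp51*, the log2 ratio was -0.37 for replicate 1 and -0.35 for replicate 2. For *Sqle*, it was -0.24 and -0.44, and for *Fdft1* -0.09 and -0.20. In *Idi1*, *Fdps* and *Dhcr7* the ratio of replicate 1 was 0.00, 0.01 and 0.04 and that of replicate 2 was -0.41, -0.28 and -0.14. *Insig1* gave -0.01 and 0.02. Both ratios were below 0 in 3 of 7 members, against 30.2% of 13639 genes with a ratio in both numbers. The median ratio of the members was -0.01 in replicate 1 and -0.28 in replicate 2.

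**Figure D2:**
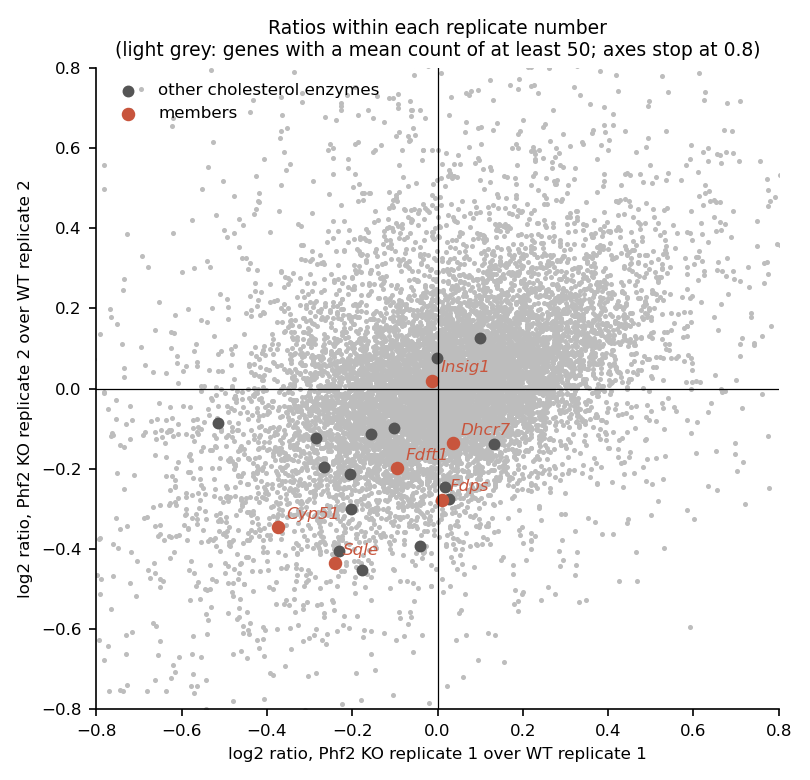
Log2 ratio of *Phf2* KO to WT within replicate 2 (vertical axis) against that within replicate 1 (horizontal axis) for genes whose counts averaged 50 or more (light grey), with members in red, other enzymes of the pathway in dark grey and axes that stop at 0.8 on either side. *Cyp51*, *Sqle* and *Fdft1* lie below 0 on both axes, *Fdps* and *Dhcr7* only on the vertical one, *Insig1* lies near the origin, and *Idi1* is under the minimum count.

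Levels were compared between genes only after division by transcript length. In WT, *Sqle* was the highest at 41.9 ± 0.69 (SD, n = 2) CPM per kb of the longest annotated transcript, followed by *Fdps* at 38.8 ± 0.49, *Insig1* at 37.0 ± 5.77, *Fdft1* at 25.8 ± 2.17, *Cyp51* at 24.8 ± 2.87, *Dhcr7* at 16.6 ± 2.38 and *Idi1* at 0.364 ± 0.078. The library values of *Fdps* and *Insig1* overlapped, as did those of *Fdft1* and *Cyp51*, so the order within these pairs is not beyond the spread. In *Phf2* KO, *Insig1* (37.1 ± 5.21), *Fdps* (35.6 ± 5.43) and *Sqle* (33.3 ± 3.72) overlapped, and *Idi1* was again the lowest at 0.327 ± 0.133. The merged exons of all *Sqle* transcripts came to 5546 bases, against 2758 in the transcript used. For *Fdps* and *Insig1* the 2 lengths were equal. Counts per gene may include all exons, so the place of *Sqle* at the top depends on the length chosen.

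The level of *Idi1* and the order of the genes were examined against the sequence, since reads of 50 nt that match several places may be lost from a count. Of the windows of 50 bases along the *Idi1* transcript, 14.5% were found at the gene only and 84.6% had an identical copy elsewhere in NCBIM37, chiefly on chromosome 2 from 53553399 to 53555892, where the annotation places *Gm13502*. *Fdps* had copies of 63.2% of its windows, the most on chromosome 10 from 93241371 to 93242495 at *Gm3571*. *Insig1* had copies of 32.5%, on chromosome 3 from 69767126 to 69769214, and *Fdft1* of 22.2%, on chromosome 14 from 19363978 to 19365475 at *Gm6781*. In *Sqle*, *Dhcr7* and *Cyp51*, 0%, 0% and 0.515% of the windows had a copy. The 3 copies named have no row of their own in the count table. Per kb of windows found only at the gene, the WT level of *Idi1* was 2.56 CPM, that of *Fdps* 181.4, *Insig1* 60.9, *Sqle* 51.7, *Fdft1* 37.0, *Cyp51* 28.4 and *Dhcr7* 19.4. This length leaves out windows without an exact match, as across exon junctions (14.5% for *Fdps* and 17.4% for *Sqle*), although reads there may have been counted. It also takes reads with several matches as lost, which is not stated, so these levels are rough. By this length *Fdps* and *Insig1* stood above *Sqle*, which was the highest by transcript length, and *Idi1* stayed the lowest. The counts of *Idi1*, *Fdps*, *Insig1* and *Fdft1* are uncertain in this respect. The comparison between the groups uses the same gene in every library, but the part of the copies in it was not tested.

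**Figure D3:**
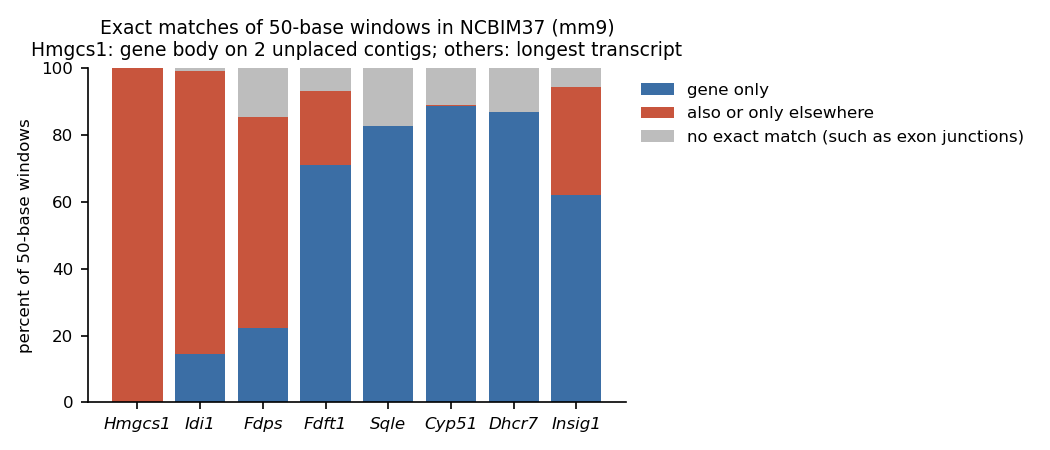
Share of 50-base windows (vertical axis, percent) found at the gene only, also or only elsewhere in NCBIM37, or without an exact match, as across exon junctions, for the longest transcript of 7 members and for the gene body of *Hmgcs1* on the unplaced contigs. All windows of *Hmgcs1*, 84.6% of those of *Idi1* and 63.2% of those of *Fdps* have copies, and *Sqle* and *Dhcr7* have none.

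The span of *Fdft1* overlaps by 769 bases with that of *Ctsb*, a protease gene on the opposite strand. Alignment was reverse stranded by the study's methods, and whether counting used the strand is not given. The *Ctsb* counts were 106925 and 41287 for WT, and 95403 and 46574 for the KO, and their part in the counts of *Fdft1* was not tested.

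The other 15 enzymes of the pathway are described next. Of these, 0 were called by edgeR or DESeq2, 13 had a log2 fold change below 0 and 2 above, and the median was -0.21. At an unadjusted p under 0.05, 2 of the 15 were lower (against 2.67% of all genes tested) and 0 higher, and *Hsd17b7*, a ketoreductase of the sterol ring, was among them. *Hsd17b7* had 883 and 1030 counts in the WT libraries against 647 and 720 in the KO libraries, and its log2 fold change was -0.32 with a standard error of 0.10 (edgeR, unadjusted p = 0.0264 and adjusted p = 0.999). All *Phf2* KO values of *Hsd17b7* lay below all WT values, as did those of 6 of the 15 enzymes, itself included, against 18.0% of all genes tested. *Hsd17b7* also had the lowest log2 fold change of the list, level with *Nsdhl* and *Tm7sf2* at -0.32, and *Pmvk*, phosphomevalonate kinase, had the highest at 0.11. *Ebp*, the isomerase that tamoxifen inhibits, stood at 0.03 (standard error 0.13). It is named after its value was seen. The median of this list also moved with single libraries, to -0.03 without WT replicate 1 and -0.08 without *Phf2* KO replicate 2.

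**Figure D4:**
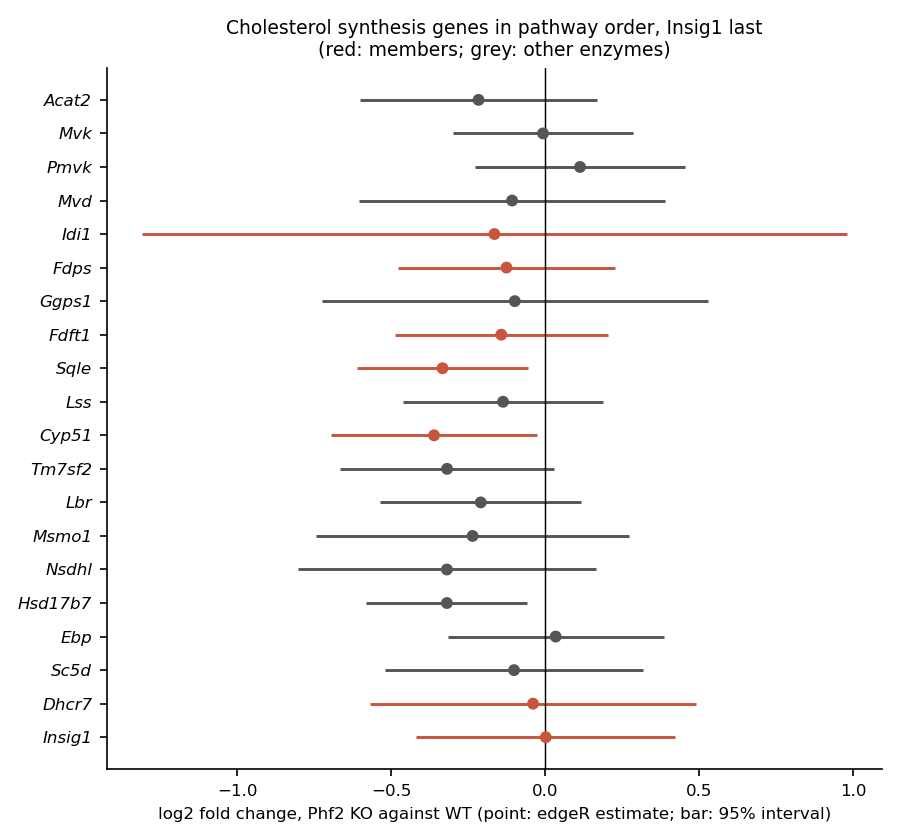
Log2 fold change of *Phf2* KO against WT (horizontal axis; points are edgeR estimates and bars 95% intervals) for 7 members in red and 13 of the other enzymes in grey, in pathway order from top to bottom with *Insig1* last. Most points lie left of 0, and the intervals of *Sqle*, *Cyp51* and *Hsd17b7* exclude 0 before adjustment.

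In the machinery that senses sterols and processes SREBP2, 0 of 12 genes had an unadjusted p under 0.05, 9 had a log2 fold change below 0 and 3 above, and the median was -0.07 (0.0048 without WT replicate 2). *Srebf2*, which encodes SREBP2, had 7775 and 8644 counts in the WT libraries against 6658 and 6827 in the KO libraries. Its normalized CPM were 322 and 333 against 321 and 284, which did not overlap by a narrow margin in replicate 1, and its log2 fold change was -0.12 with a standard error of 0.10 (edgeR, adjusted p = 0.999). *Scap* gave -0.06 (standard error 0.09), *Insig2*, the second Insig gene, -0.10 (standard error 0.14) and *Srebf1*, which encodes SREBP1, -0.01 (standard error 0.11). The lowest of the list was *Erlin1* at -0.31 and the highest *Erlin2* at 0.03, which encode partner proteins of the endoplasmic reticulum.

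Of 10 genes of cholesterol uptake and transport, 0 had an unadjusted p under 0.05, 5 lay below 0 and 5 above, and the median was -0.03. The sign of this median depended on single libraries: it was 0.28 without WT replicate 1, -0.35 without WT replicate 2, -0.39 with KO replicate 1 left out and 0.21 with KO replicate 2 left out. *Stard4*, a sterol carrier, had a log2 fold change of -0.21 (standard error 0.28). *Tmem97*, whose product binds sterols and sigma-2 ligands, was the lowest at -0.40, and *Mylip*, a ubiquitin ligase gene and LXR target, the highest at 0.12.

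The SREBP1 targets of fatty acid synthesis had 0 of 14 genes with an unadjusted p under 0.05, 10 below 0 and 4 above, and a median of -0.05 (0.02 with KO replicate 2 left out and -0.16 with KO replicate 1 left out), between *Pnpla3* at -0.39 and *Mid1ip1* at 0.27. The 12 genes of the branches that lead from mevalonate to ubiquinone, dolichol, protein prenylation and modified tRNA had 0 as well, 7 below 0 and 5 above, and a median of -0.04, between *Pdss2* at -0.29 and *Trit1* at 0.30.

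LXR receptors are activated by oxysterols and switch on genes that export cholesterol, so they respond to sterols in the direction opposite to SREBP2. The list used here also holds genes of the receptors and of oxysterol metabolism, so its median does not read out LXR activity alone. Of 11 LXR genes and targets, 0 had an unadjusted p under 0.05, 6 had a log2 fold change above 0 and 5 below, and the median was 0.12. This median had no firm sign: it was 0.24 without WT replicate 1, -0.22 without WT replicate 2, -0.28 with KO replicate 1 left out and 0.35 with KO replicate 2 left out. *Abca1*, a cholesterol exporter, had 12736 and 9314 counts in the WT libraries against 12790 and 9260 in the KO libraries, a log2 fold change of 0.18 (standard error 0.30). *Abcg1*, another exporter, had 1294 and 360 counts in the WT libraries against 1619 and 557 in the KO libraries, and was the highest of the list at 0.58 (standard error 0.85). Its counts were higher in replicate 1 in both groups, as those of the macrophage markers were. Of 19 such markers tested, 11 were also higher in *Phf2* KO than in WT within both replicate numbers, and 0 were lower in both. Over all 13668 genes tested, 4426 were higher and 4118 lower in both. The part of macrophages in the value of *Abcg1* was not tested. *Apoe*, named after its value was seen, had 9821 and 7414 counts in the WT libraries against 11452 and 10724 in the KO libraries. Its log2 fold change was 0.53 with a standard error of 0.22 (edgeR, adjusted p = 0.999). These counts too were higher in replicate 1 in both groups, and the part of macrophages in them was not tested. Both *Phf2* KO libraries lay above both WT libraries in 1 of the 11 genes, *Apoe*, against 15.5% of all genes tested. They lay below in 2, against 18.0%. *Cyp7b1*, an oxysterol hydroxylase, was the lowest at -0.59.

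**Figure D5:**
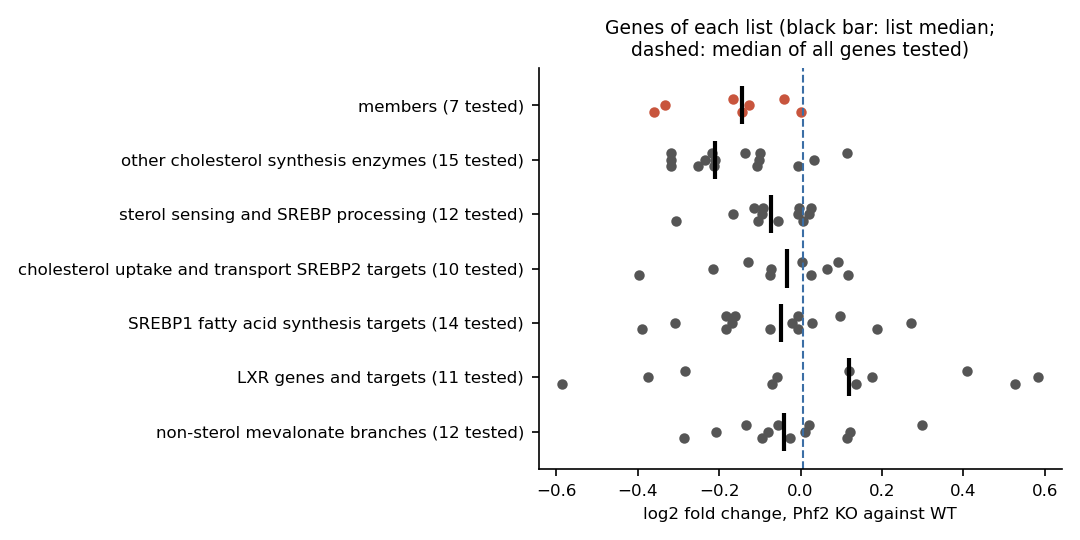
Log2 fold change of *Phf2* KO against WT (horizontal axis) of each gene tested, one point per gene and one row per list, with black bars for the list medians and a dashed line for the median of all genes tested, 0.01. The medians of the members (-0.14) and of the other enzymes (-0.21) are the lowest of these lists. That of the LXR genes (0.12) is the highest, but turns to -0.22 without WT replicate 2 and to -0.28 without *Phf2* KO replicate 1.

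The mean of the members' log2 CPM, each centred over the libraries, was 0.20 and -0.02 for the WT libraries, and 0.10 and -0.28 for the KO libraries. Across these 4 libraries, the genes most like it among 11430 searched included *Tdrd7*, *Wbp11*, *Proser1* and *Pbx3*, with Pearson's r between 0.9993 and 0.9998. With 4 libraries, 385 genes had an r over 0.95, and 451 were as strongly opposed, so this likeness is a description only.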

How the data were processed

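RNA-seq was performed on MEFs, with 2 WT and 2 *Phf2* KO libraries read as single reads of 50 nt. According to their methods, the authors used Trim Galore, bowtie2 against rRNA, STAR in reverse-stranded mode on mm9 and featureCounts, and they deposited whole-number counts per gene symbol, not normalized. Versions, the annotation and the handling of reads with several matches are not given in the sources used here. The authors' own DESeq2 table was not used.

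Counts were tested in R 4.3.3 with edgeR 4.0.16 (filterByExpr, TMM factors between 0.983 and 1.01, glmQLFit and glmQLFTest with genotype alone), with Benjamini-Hochberg adjustment over the 13668 genes kept and genes were called under 0.1. Alternatives were DESeq2 1.42.0, limma-voom (limma 3.58.1), other scalings, filters and thresholds, a replicate block, and leaving out single libraries. The fits were tested on simulated counts with no replicate effect and with larger fold changes than those of the members. The simulated spread was also smaller than the fit with genotype alone found here. This was a check of the code and does not show how the fits perform on these data. The chi-square per degree of freedom between libraries was 15.3 or more, so none was a duplicate. It was lowest between libraries of the same number, 15.3 for replicate 2 and 19.6 for replicate 1. Within the groups it was 53.8 for WT and 36.7 for *Phf2* KO. Windows of 50 bases from GENCODE vM1 transcripts were matched exactly to NCBIM37. Promoters came from RefSeq (GRCm38.p6), and the 250 bases before the start were searched. Normalized CPM are counts scaled by TMM.

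The members, gene lists and alternatives were chosen with earlier results of these data known. Genes named are the members, *Phf2*, *Srebf2*, *Srebf1*, *Scap*, *Insig2*, *Stard4*, *Abca1*, *Abcg1*, listed genes with an unadjusted p under 0.05, the extremes of each list, the 5 genes of most similar pattern, *Xist* and *Ddx3y*. Some genes under this rule are not reported here. Others are marked as named after their values were seen or stand for a marker list or a copy. Lists of endothelial, epithelial, muscle, neural and adipocyte markers were also summed. Their summed CPM lay between 3.61 and 159 in every library.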

Additional observations from a re-analysis of the deposited data

How the results depend on the processing

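The call of 0 members held for DESeq2, limma-voom, the other scalings, filters and thresholds, and each library left out, with adjusted p-values of 0.773 or more, and did not hold with a replicate block. Labels and methods state no pairing. Across 11556 genes, the replicate difference in WT and that in *Phf2* KO had a Pearson's r of 0.682, and genes are not independent. With the replicate block and 1 residual degree of freedom, 11% of 13668 genes were called, 789 higher and 711 lower. Among the lower genes were 2 members, *Sqle* (log2 fold change -0.34, adjusted p = 0.00154 from edgeR) and *Cyp51* (-0.36, adjusted p = 0.000609 from edgeR). The prior degrees of freedom of this fit were infinite, so its p-values rest on a spread pooled over genes, not on that of each gene. This fit also called 5 of the 15 other enzymes and 1 of 10 uptake genes lower, 3 LXR genes higher and 1 lower, and 1 SREBP1 target each way. Of 19 macrophage markers tested, it called 9 higher and 0 lower. Over all genes, where the fit without the block called 0 higher and 1 lower, DESeq2 called 10 higher and 54 lower, and 0 were lower by limma-voom, at thresholds of 0.05 or 0.01, or without any 1 library. *Insig1* changed sign to -0.013 with library size alone, -0.0029 with all genes with a count and -0.0023 with the CPM filter. With single libraries left out, *Idi1* ranged from -0.65 to 0.21, *Insig1* from -0.16 to 0.18, *Fdps* from -0.29 to 0.021, *Dhcr7* from -0.29 to 0.17, *Fdft1* from -0.29 to -0.01, *Sqle* from -0.45 to -0.23 and *Cyp51* from -0.49 to -0.23. The median of the members ranged from -0.29 to 0.021, and that of the sterol sensing genes from -0.0559 to 0.0048. The causes were not tested. Counts of 16 to 29 limit *Idi1*.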
